A study of Mus musculus with 2 samples.

Results

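The transcripts described here encode 9 transcription factors of the myeloid lineage: Spi1, which encodes PU.1, Zeb2, Cebpa, Cebpb, Maf, Irf5, Irf8, Batf3 and Irf4. They were picked by symbol from the 27998 genes of 2 single-cell RNA libraries; no measured value enters the rule, although earlier results of these data were known when it was written. All 9 were found in both libraries. The responder library and the non-responder library each held CD45+ leukocytes, sorted by flow cytometry from subcutaneous MC38-GFP tumours of C57BL/6 mice. MC38 is a mouse colon adenocarcinoma line. All mice had received 50000 tumour cells and a sub-optimal course of an antibody against PD-1, the inhibitory receptor of T cells, with 100 ug given to each mouse on day 12, day 15, day 18 and day 22. The treatment was therefore common to both groups, and no untreated library was analysed here. Responder and non-responder are the response labels of the tumours. How many mice each library pooled, their age and the size of the tumours are not given in the sources used here, and with 1 library per group no test between groups was possible. Differences are therefore given as ratios with intervals that cover counting error only, and the response, the animal, the sort and the library preparation cannot be told apart.

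PU.1 is an ETS-family factor that is needed for the formation of macrophages, and its amount helps to set the choice between myeloid fates. C/EBP alpha acts early in the myeloid lineage, C/EBP beta in inflammatory and monocyte programmes, and ZEB2 in the identity of tissue macrophages and monocytes. IRF8, with BATF3 as a partner, is required for type 1 conventional dendritic cells, which present tumour antigen to CD8 T cells, and IRF8 is also made in monocytes and macrophages. IRF4 is known from type 2 and migratory dendritic cells, from alternatively activated macrophages and from activated lymphocytes. IRF5 is a factor of inflammatory macrophages, and c-Maf, the product of Maf, is known for restraining inflammation and for Il10 in macrophages and T cells.

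After filtering, 4376 responder and 2565 non-responder cells remained, with medians of 10043 and 11752 UMIs (unique molecular identifiers, one per captured transcript) per cell. The libraries shared 14 cell barcodes. Cells were clustered without the 9 genes, and clusters were named from marker genes. The macrophage-like class held 4018 responder and 1683 non-responder cells, 91.8% and 65.6% of the cells. The monocyte-like class (cluster 9) held 48 responder and 136 non-responder cells, and the dendritic-like class (cluster 12) held 11 responder and 76 non-responder cells. Adgre1, the F4/80 macrophage antigen, stood at 264 CPM (UMI counts scaled to a common total) in responder and 319 CPM in non-responder macrophage-like cells. Cluster 12 was named from Ccl17, H2-DMb2, Mgl2, Ccr7, Ccl22 and Cd209a among its leading genes. Flt3, a dendritic cell receptor not among them, had 0 and 4 counts in macrophage-like cells but 34.5 and 48.6 CPM in dendritic-like cells. In the 11 responder dendritic-like cells that level is only 3 counts. Cluster 5, led by Mmp12, Hmox1, S100a8 and Spp1, carried 39 responder and 535 non-responder cells; neutrophil markers outnumbered macrophage markers among its leading genes, so it was kept apart and is given by number. Set against all other clusters, clusters 2, 3 and 6 also had more markers of another class than macrophage markers among their leading genes. They were kept because they passed a check against the cells outside the monocyte-like and macrophage-like classes. That check counted monocyte markers as well as macrophage markers in favour of a cluster, so it could not tell these classes apart. Cluster 3 had 2 monocyte markers among its leading genes, and its macrophage-like name was not settled by the check. Clusters 2, 3 and 6 held 885, 756 and 486 responder and 33, 24 and 13 non-responder cells. Without these clusters the responder over non-responder log2 ratio was 1.55 for Spi1, -0.98 for Maf, 0.995 for Batf3 and 0.29 for Cebpb. Most macrophage clusters came almost wholly from 1 library, so a difference between such clusters is also a difference between libraries.

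The 250 bases before the start of Irf8 and of Batf3 are shown because these partner genes differ between kinds of dendritic-like cells in what follows, and Batf3 also between responder macrophage clusters. The sequences are from RefSeq on build GRCm38.p6, where windows of this kind were found for 7 of the 9 genes. Both are the plus strand, Irf8 at chr8:120736108-120736357 and Batf3 at chr1:191098164-191098413, 5′ to 3′, with capitals at the match to a motif, among 5 motifs searched on both strands. The starts are those of RefSeq; the gene bounds of the annotation used for the coordinates given with each gene below can differ, and for Batf3 they begin upstream of the RefSeq start, so that its window lies within them.
Irf8: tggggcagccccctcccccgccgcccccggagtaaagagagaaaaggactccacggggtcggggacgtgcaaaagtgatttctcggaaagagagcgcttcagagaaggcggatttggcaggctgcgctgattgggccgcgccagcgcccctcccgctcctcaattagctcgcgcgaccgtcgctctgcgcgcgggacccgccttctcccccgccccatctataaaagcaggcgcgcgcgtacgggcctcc
Batf3: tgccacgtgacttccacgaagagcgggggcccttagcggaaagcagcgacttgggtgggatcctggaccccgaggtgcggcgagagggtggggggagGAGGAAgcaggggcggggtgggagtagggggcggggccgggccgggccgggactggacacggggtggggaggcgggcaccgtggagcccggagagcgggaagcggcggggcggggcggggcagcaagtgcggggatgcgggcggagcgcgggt
The Batf3 window holds GAGGAA, a core that PU.1 can bind, at -153 from the start, and the Irf8 window does not hold it. GAGGAA occurs in 23.3% of the 32851 RefSeq windows of this length. Neither window holds GAAANNGAA, GGAANNGAA, TTGCNNAA or TGANTCA, the letters of interferon-stimulated, ETS and IRF composite, C/EBP and AP-1 elements. The match describes the letters and does not show binding, and the absence of the others concerns these windows alone.

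**Figure D1:**
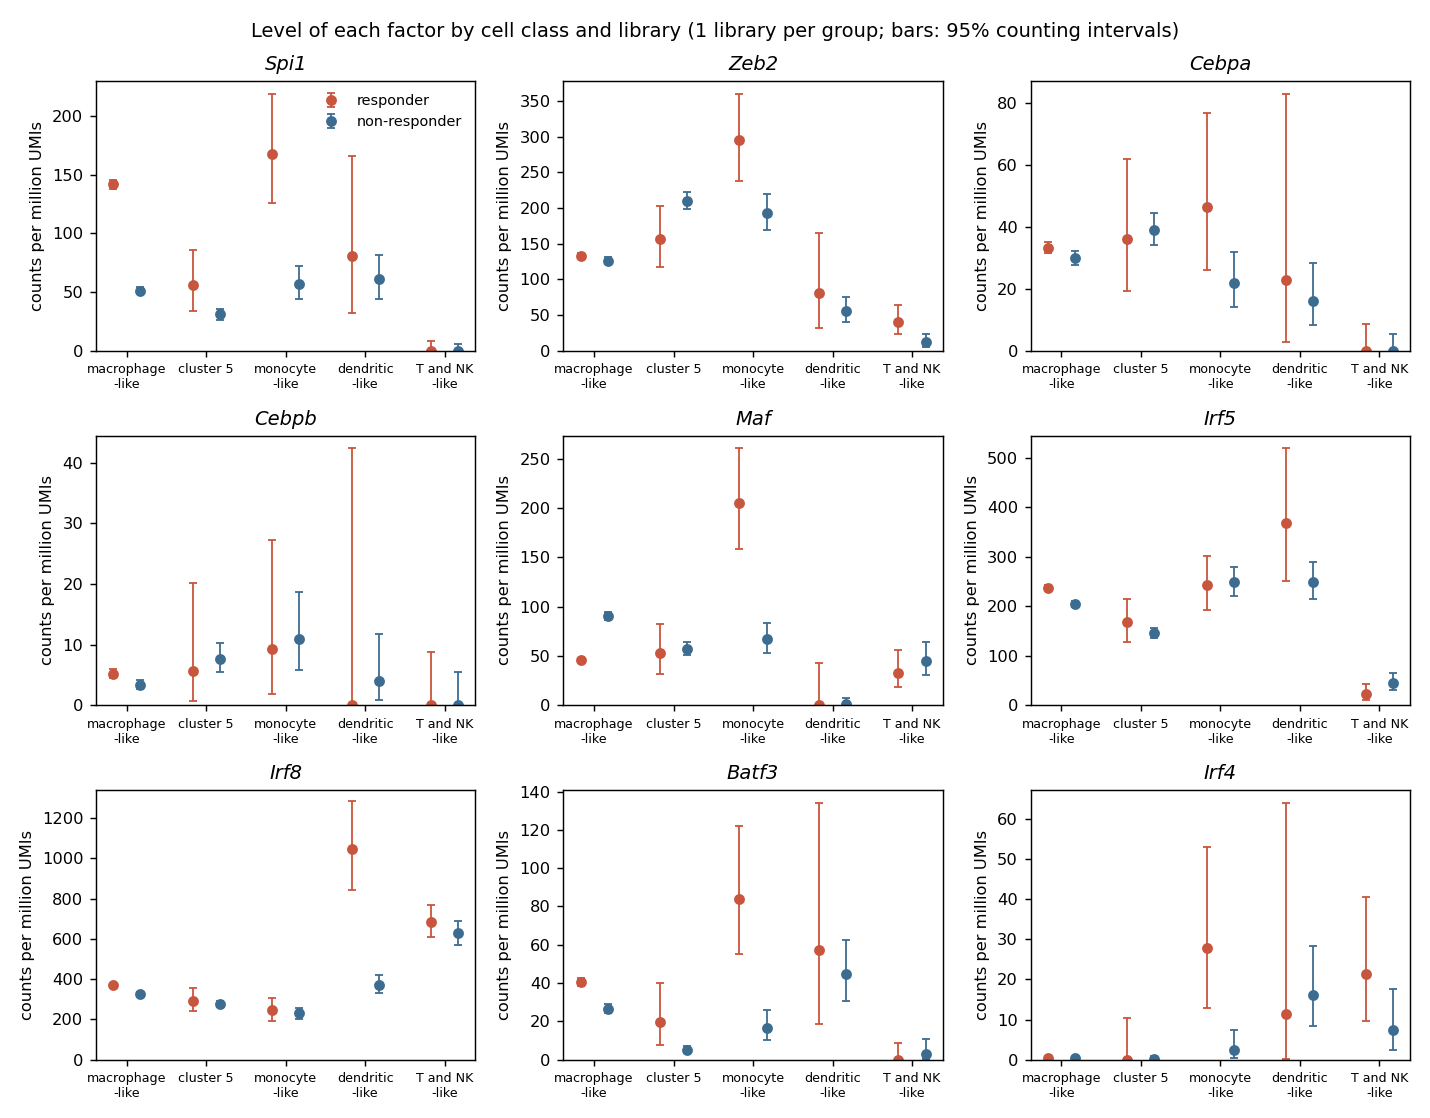
Level of each of the 9 factors (y axis, CPM, from 0) in 5 cell classes (x axis), with responder points left of non-responder points and bars for 95% counting intervals. Spi1 stands at 142 CPM in responder and 51.2 CPM in non-responder macrophage-like cells and at 0 in T and NK cell-like cells, and Maf at 0 and 1.35 CPM in dendritic-like cells.

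In the macrophage-like class the factors did not move as a block: Spi1 was higher in the responder library, Maf was lower, and Zeb2, Cebpa, Irf5 and Irf8 lay within 1.5-fold. Of the 8 factors with at least 50 counts over both libraries, 3 were higher in the responder library by 1.5-fold or more, Spi1, Cebpb and Batf3, where 7.99% of 10695 measured genes were, and 1 was lower, Maf, where 12.9% of genes were. The median over all genes was a log2 ratio of -0.14. With TMM scaling these shares were 11.6% and 7.63%, and the 4 calls stood. With cluster 5 counted in the class, 2 were higher, where 8.35% of genes were, and 1 lower, where 11.5% were: Cebpb was no longer past 1.5-fold, at a log2 ratio of 0.32.

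Among the factors of the whole lineage, Spi1 (chr2:91082390-91115756, plus strand, GRCm38) had 5977 counts in responder macrophage-like cells, a level of 142 CPM (95% interval 138 to 145), and 1152 counts in non-responder cells, 51.2 CPM (48.3 to 54.2). The log2 ratio was 1.47 (1.38 to 1.56), a 2.77-fold higher level. The intervals of the libraries lay far apart. Of cells thinned to 3000 UMIs each, 34.3% of responder and 14.5% of non-responder cells had a Spi1 UMI (73.4% and 48.2% before thinning). At this depth such shares mostly follow from the mean level, so they are not a separate difference in how many cells make the transcript. In T and NK cell-like cells, where PU.1 is not expected, 0 of 81 responder and 0 of 87 non-responder thinned cells had one, where a count of 0, taken as fewer than 3 cells, allows shares of up to 3.70% and 3.45% (upper Clopper-Pearson ends 4.45% and 4.15%).

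Zeb2 (chr2:44983632-45117395, minus strand) was at 133 CPM in responder and 127 CPM in non-responder macrophage-like cells, a log2 ratio of 0.07 (0.01 to 0.14). These levels lay close together. Its antisense gene Zeb2os was counted at 113 and 127 CPM, and whether counting used the strand is not given in the sources used here, so reads of the pair may be mixed. Cebpa (chr7:35119293-35121928, plus strand) was at 33.3 CPM in responder and 29.9 CPM in non-responder cells, a log2 ratio of 0.16 (0.02 to 0.29). Cebpb (chr2:167688915-167690418, plus strand) was sparse, with 220 counts and 5.22 CPM in responder and 75 counts and 3.33 CPM in non-responder cells, a log2 ratio of 0.65 (0.26 to 1.04). Cebpb overlaps Tmem189, which is on the other strand and had 41.9 and 51.2 CPM. The Cebpb call did not hold in thinned cells, at a log2 ratio of 0.090, or under any of the 6 reclusterings, at 0.13 to 0.45. Among 13 alternatives it held in 3.

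Maf (chr8:115682942-115707794, minus strand) ran opposite to Spi1. It had 1940 counts and 46.0 CPM in responder macrophage-like cells (44.0 to 48.1) and 2042 counts and 90.8 CPM in non-responder cells (86.9 to 94.8). The log2 ratio was -0.98 (-1.07 to -0.89). Thinned cells with a Maf UMI made up 12.1% of responder and 21.9% of non-responder cells, and 33.7% and 58.4% before thinning. T and NK cell-like cells are no blank for this gene, since T cells make c-Maf: Maf was at 9.98 and 12.5 CPM in the Gzmb-high cluster 10 and at 479 and 223 CPM in the Tnfrsf4-high cluster 16, which held 4 responder and 20 non-responder cells.

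Of the interferon regulatory factors, Irf8 (chr8:120736358-120756694, plus strand) stood at 372 CPM in responder and 327 CPM in non-responder macrophage-like cells, a log2 ratio of 0.18 (0.14 to 0.22). Irf5 (chr6:29526625-29541871, plus strand) stood at 237 CPM in responder and 204 CPM in non-responder cells, a log2 ratio of 0.22 (0.17 to 0.27). Irf5 overlaps Tnpo3, on the other strand, at 24.8 and 25.1 CPM, and Irf8 overlaps Gm20388, on the same strand. Irf8 and Irf5 were therefore broad macrophage transcripts that differed little between the libraries. Batf3 (chr1:191097847-191108945, plus strand) was at 40.6 CPM in responder (38.7 to 42.6) and 26.6 CPM in non-responder cells (24.5 to 28.8), a log2 ratio of 0.61 (0.47 to 0.74), just past 1.5-fold; without the dividing clusters it was 0.48 and in thinned cells 0.52, short of that fold. Irf4 (chr13:30749226-30766976, plus strand) was almost undetected in macrophage-like cells, with 13 counts and 0.308 CPM in the responder and 7 counts and 0.311 CPM in the non-responder library, too few for a comparison.

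The mix of macrophage states differed between the libraries, so the ratios were also taken within states. Spi1 was higher in responder cells in the 4 clusters and 2 pairs of clusters that were compared; every other cluster held at most 13 cells of one library. Within cluster 2, led by Cox4i2 and Aldoc, Spi1 was at 131 CPM in responder and 49.0 CPM in non-responder cells. Within cluster 3, led by Ly6i and Ly6c2, it was at 125 and 49.9 CPM. Within the dividing cluster 4 it was at 134 and 44.6 CPM. These 3 ratios were 1.42, 1.33 and 1.59 in log2, although the non-responder side rested on 16, 9 and 24 counts. Between the dividing clusters of each library, responder cluster 4 and non-responder cluster 7, the log2 ratio was 1.61 (1.43 to 1.80); 8.52% of genes were higher by 1.5-fold or more in that comparison and 11.7% lower. Between the clusters led by interferon-induced Ifit genes, responder cluster 6 and non-responder cluster 13, it was 1.40 (1.02 to 1.80). In cluster 5 Spi1 was at 55.8 CPM in responder and 30.9 CPM in non-responder cells, a smaller log2 ratio of 0.85 (0.11 to 1.52).

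The Maf ratio varied more between these comparisons. Its log2 ratio was -0.88 between the dividing clusters (-1.08 to -0.69), at 44.7 CPM in responder and 82.5 CPM in non-responder cells, and -0.86 between the Ifit clusters (-1.20 to -0.50). Within clusters 2 and 3 it was -0.31 (-0.94 to 0.40) and -0.24 (-1.31 to 1.09), so no difference was detectable there at this depth; within cluster 4 it was -0.73 (-1.20 to -0.22). When the 3 shared clusters were weighted equally in both libraries, the log2 ratio of Spi1 stayed at 1.44, that of Maf was -0.43 and that of Batf3 was 0.15. With these weights Maf and Batf3 were under 1.5-fold and Spi1 was not; the clusters hold 33, 24 and 34 non-responder cells. The summed level of the 8 NK cell markers in macrophage-like cells was 82.0 CPM for the responder library and 10.7 CPM for the non-responder library, with 2 of 8 markers at 0 in each. Some other summed markers were also higher in the responder library. Among these were 4 endothelial markers at 38.7 and 9.56 CPM, 5 of B and plasma cells at 63.5 and 24.2 CPM (2 and 1 at 0) and 8 of T cells at 12.1 and 6.62 CPM. Likewise 8 of type 1 dendritic cells were at 273 and 169 CPM and 11 of mature dendritic cells at 2329 and 1531 CPM (0 and 1 at 0). The mature dendritic markers include the chemokine Ccl5, at 1766 CPM in responder and 428 CPM in non-responder macrophage-like cells. Without Ccl5 the mature dendritic sum was lower in the responder library. Other sums were lower in the responder library: 7 neutrophil markers at 28.7 and 39.1 CPM (1 and 0 at 0), 7 of type 2 dendritic cells at 193 and 251 CPM (1 at 0 in each) and 13 of monocytes at 1063 and 1132 CPM. Fibroblast markers were level, at 4.22 CPM in each. The part of all these markers in the ratios was not tested. Spi1 itself was at 0 in T and NK cell-like cells.

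**Figure D2:**
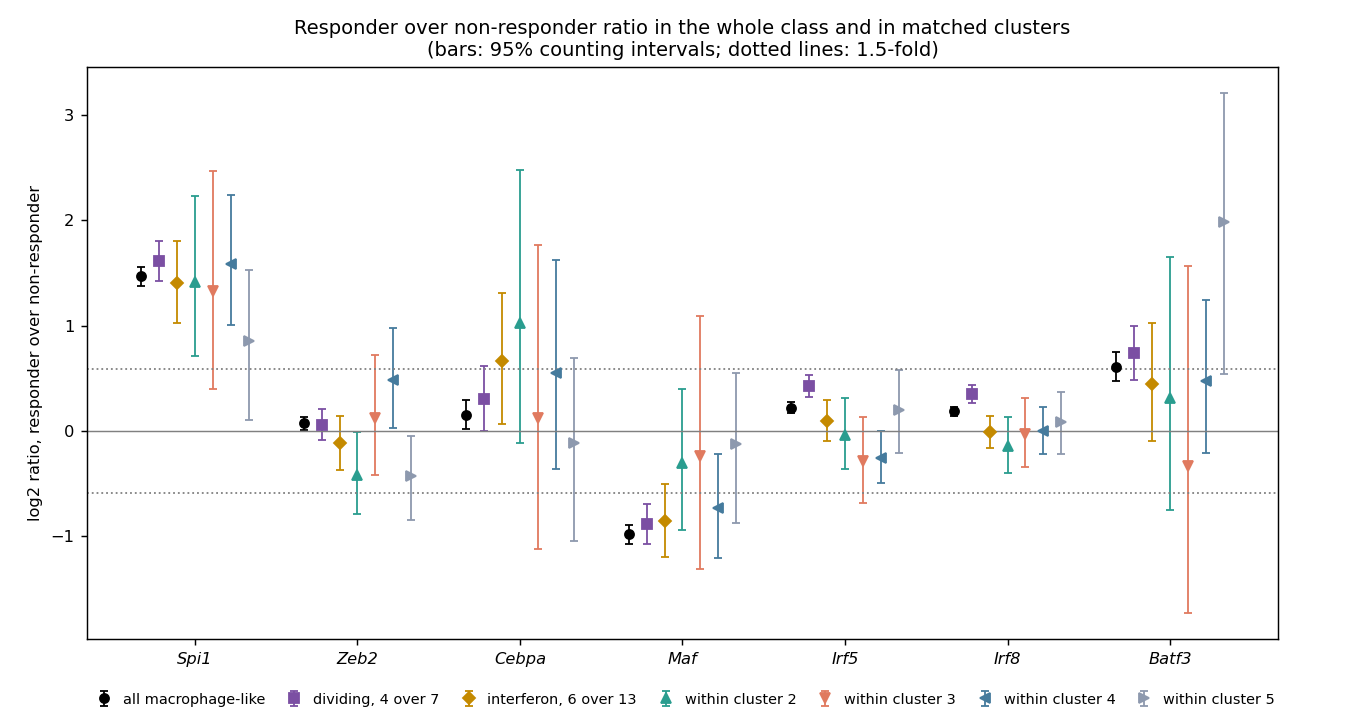
Log2 ratio of responder over non-responder level (y axis) for 7 of the factors (x axis), in the whole macrophage-like class, between paired dividing and interferon clusters, and within 4 clusters that both libraries hold; bars are 95% counting intervals and dotted lines mark 1.5-fold. Spi1 lies between 0.85 and 1.61 in every comparison, while Maf ranges between -0.98 and -0.12 and Irf8 stays within 1.5-fold.

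Across the responder macrophage clusters of 50 or more cells, Batf3 had a wide range. It stood at 63.1 CPM in the S-phase cluster 8 and 55.2 CPM in cluster 1, led by Cxcl9 and MHC class II genes, and at 17.6 CPM in the Ly6c2-high cluster 3, a 3.60-fold range, beside 3.51-fold for the sparse Cebpb. Cluster 3 was 2.56-fold below the other responder macrophage-like cells for Batf3 (log2 ratio -1.36), lower by 1.5-fold as 13.6% of genes were, and Cebpb was 1.89-fold higher, as 6.31% of genes were at 1.5-fold, while Irf8 was highest there at 436 CPM. IRF8 and BATF3 transcripts thus did not follow each other across these clusters. Among non-responder macrophage-like clusters Batf3 did not vary beyond counting error, at 30.4 CPM in cluster 13, 27.8 CPM in cluster 7 and 25.4 CPM in cluster 0, a 1.19-fold range; cluster 5, set apart above, was at 4.94 CPM. The highest cluster exceeded the lowest by 2-fold or more for 17.3% of responder genes with 500 or more counts, and for 9.74% of non-responder genes without cluster 5 and 29.9% with it.

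Zeb2 had a different order. It was highest in responder cluster 3 at 169 CPM and lowest in the dividing clusters 4 and 8 at 106 and 94.1 CPM. In the non-responder library it was at 142 CPM in cluster 13 and lowest in the dividing cluster 7 at 102 CPM, a 1.39-fold range, and cluster 5 was above both at 210 CPM. The low end was therefore a dividing cluster in each library. Spi1 varied 1.34-fold over responder clusters, with cluster 1 highest at 168 CPM and the other 5 not separated neighbour by neighbour, and 1.28-fold over non-responder clusters, or 1.82-fold with cluster 5, which was lowest. Among clusters of 50 or more cells in a library, the lowest responder cluster, at 125 CPM, lay above the highest non-responder cluster, at 56.1 CPM. Maf was lowest in cluster 3 of the responder library, at 32.9 CPM against 52.0 CPM in cluster 2, while non-responder clusters ranged between 82.5 CPM in cluster 7 and 98.4 CPM in the Fcrls-high cluster 0, with cluster 5 at 57.5 CPM.

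**Figure D3:**
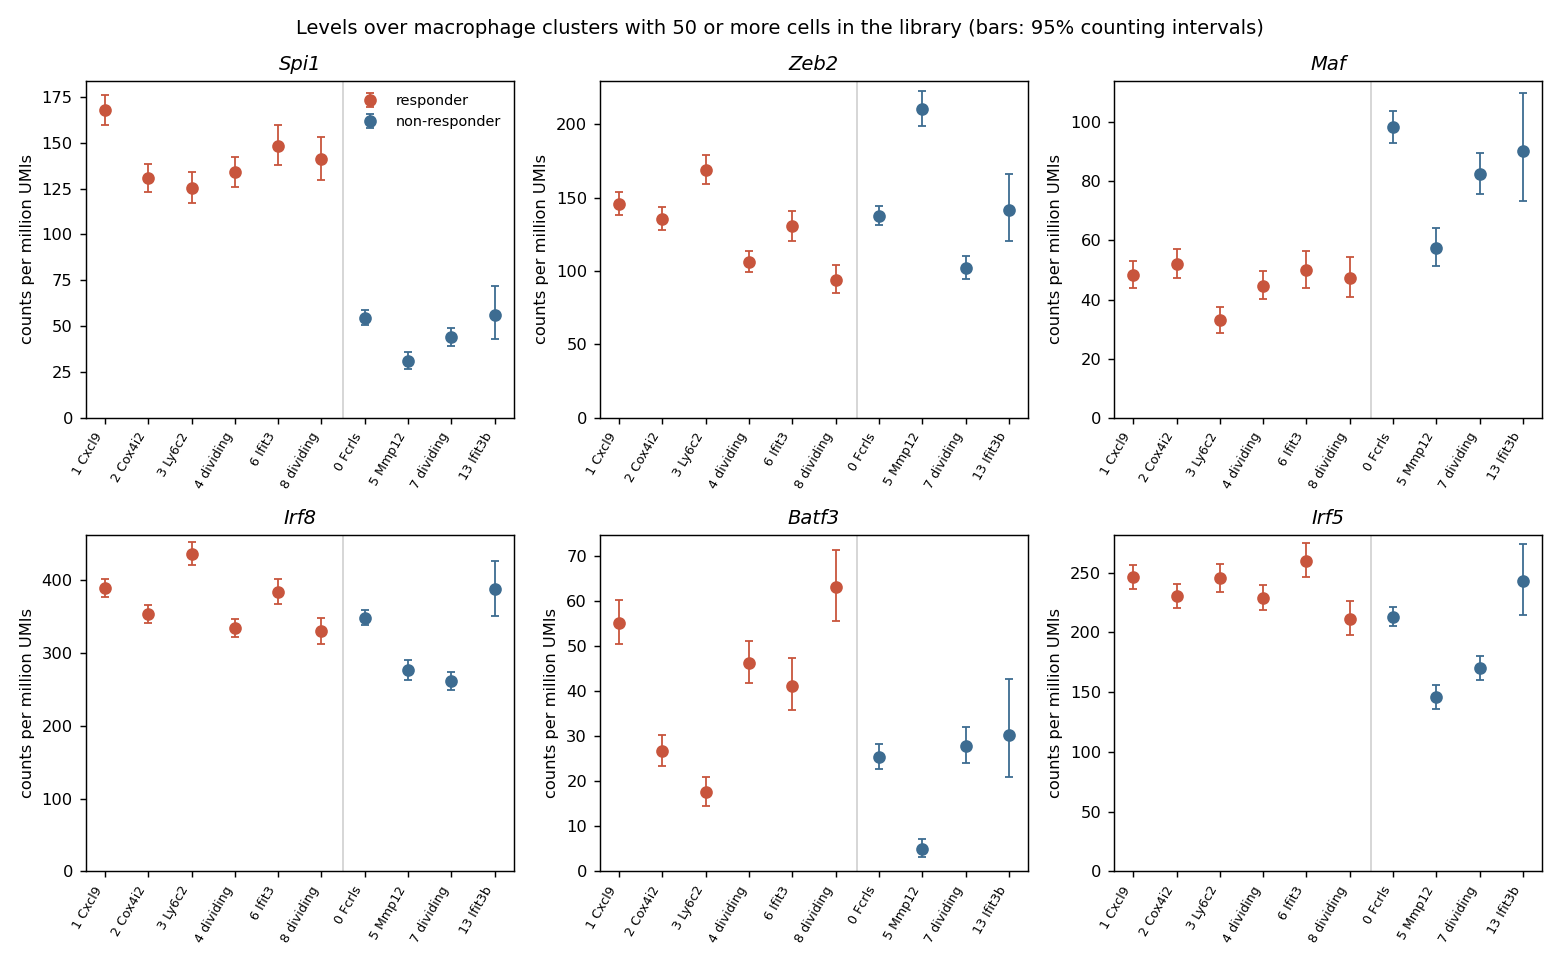
Levels of 6 factors (y axis, CPM, from 0) in macrophage-like clusters and cluster 5, with 50 or more cells in a library (x axis, number and a leading gene), responder clusters left of the line and non-responder clusters right of it, with 95% counting intervals. Responder clusters lie between 125 and 168 CPM for Spi1, above all non-responder clusters, and Batf3 is lowest in clusters 3 and 5.

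Monocyte-like cells of cluster 9 were led by Retnla, Chil3, Plac8 and Ly6c2. Ccl17 and Mgl2, also used to name the dendritic-like class, were among their leading genes too. Summed type 2 dendritic markers were at 984 CPM in responder and 776 CPM in non-responder monocyte-like cells. They were at 193 and 251 CPM in macrophage-like cells and 1207 and 1600 CPM in dendritic-like cells. Summed monocyte markers were at 7107 and 7677 CPM in monocyte-like cells and 5333 and 2364 CPM in dendritic-like cells. In each library monocyte-like cells had more Zeb2 than macrophage-like cells. Zeb2 was at 295 CPM in responder and 193 CPM in non-responder monocyte-like cells. That was 2.22-fold above responder and 1.53-fold above non-responder macrophage-like cells, with log2 ratios of 1.15 (0.84 to 1.44) and 0.61 (0.41 to 0.81). Irf8 was lower than in macrophage-like cells, at 245 CPM in responder and 230 CPM in non-responder cells, log2 ratios of -0.60 and -0.51; in the responder library this passed 1.5-fold, as 29.6% of genes did in that direction. Spi1 stayed near the macrophage level of its own library, at 168 and 56.9 CPM. Zeb2, Irf8 and Spi1 of this class were not retaken under other clusterings, where it took in responder cells of the kind in cluster 3. Responder cluster 3 had Irf8 at 436 CPM, above the 372 CPM of responder macrophage-like cells, and Zeb2 at 169 CPM. Every factor but Irf4 had 50 or more counts over both classes in each library, although Cebpb had only 3 in responder monocyte-like cells. In the responder library 4 of them were higher by 1.5-fold or more, as 23.8% of genes were: Maf, Cebpb, Zeb2 and Batf3. In the non-responder library 2 were, Cebpb and Zeb2, where 9.92% of genes were, and Batf3 was lower, where 24.7% were. Between the libraries, only Spi1, Maf, Irf5, Irf8 and Zeb2 had 50 or more counts in monocyte-like cells. Of these, Spi1, Maf and Zeb2 were higher in responder cells by 1.5-fold or more, where 14.5% of 2996 measured genes were. None of these measured factors was lower, where 16.4% of genes were. Batf3, Cebpa, Cebpb and Irf4 had too few counts to be called.

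Relative to macrophage-like cells, Maf and Batf3 were both higher in responder and both lower in non-responder cells of cluster 9. Maf was at 205 CPM in responder (66 counts) and 67.0 CPM in non-responder cells (80 counts). Batf3 was at 83.8 CPM in responder (27 counts) and 16.7 CPM in non-responder cells (20 counts). The cells themselves differed: Ccl8, a chemokine, was at 3150 CPM in responder and 7.54 CPM in non-responder cells, and Arg1, arginase, was at 27.9 and 2128 CPM. Cluster 9 thus joins different cells from each library. Under other clusterings the monocyte-like class took in 184 to 688 responder cells, among them cells of the kind in cluster 3, and the Maf difference was reversed; with cluster 3 counted as monocyte-like the log2 ratio of Maf was -0.63. The values in responder monocyte-like cells, those of Maf and Batf3 among them, are those of 48 particular cells.

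Dendritic-like cells of cluster 12 had almost no Maf. A single count, 1.35 CPM, was found in 76 non-responder cells, against 90.8 CPM in non-responder macrophage-like cells, a log2 ratio of -6.07 (-11.38 to -3.59), and 0 counts were found in the 11 responder cells, a depth at which up to 34.5 CPM is allowed. Zeb2 was at 55.3 CPM in non-responder dendritic-like cells, against 127 CPM in macrophage-like cells, a log2 ratio of -1.19 (-1.68 to -0.75). Cebpa was at 16.2 CPM, against 29.9 CPM, a log2 ratio of -0.89 (-1.85 to -0.07). Those 3 factors were lower by 1.5-fold or more, where 35.2% of genes were, and 1 was higher, Batf3, where 13.1% of genes were. Batf3 was at 44.5 CPM, against 26.6 CPM, a log2 ratio of 0.74 (0.19 to 1.25). At Leiden resolution 0.5, where the class took in 205 cells, the log2 ratio was -1.18 for Maf and 0.065 for Batf3. Spi1, Irf5 and Irf8 lay within 1.5-fold of the macrophage-like level, at 60.7, 250 and 372 CPM in dendritic-like cells. Irf4 had 12 counts, 16.2 CPM, in dendritic-like cells, against 7 counts, 0.311 CPM, in macrophage-like cells of 1683. Irf4 was not particular to dendritic-like cells. Monocyte-like cells had 27.9 CPM (9 counts) in the responder and 2.51 CPM (3 counts) in the non-responder library. T and NK cell-like cells had 21.3 CPM (9 counts) and 7.51 CPM (5 counts).

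The dendritic-like level of Irf8 was a mean over unlike cells. In the non-responder library, 3 cells with an Xcr1 or Clec9a UMI, receptors of type 1 dendritic cells, had Irf8 at 1284 CPM (950 to 1698). The 7 cells with 5 or more UMIs of Ccr7 and Fscn1, genes of mature migrating dendritic cells, had it at 1686 CPM (1392 to 2024). The 53 cells with a Cd209a or Mgl2 UMI, genes of type 2 cells, had it at 161 CPM (128 to 199), below the macrophage-like level of 327 CPM. So high Irf8 sat in few cells, and the largest group was low. That group also had the macrophage marker C1qa at 1384 CPM, against 73.3 CPM in the Ccr7 cells and 7626 CPM in non-responder macrophage-like cells. The 3 Xcr1 or Clec9a cells held 12 Mgl2 counts, so the cut did not fully part the kinds. Batf3 was highest in the Ccr7 cells too, at 205 CPM (112 to 344), against 26.5 CPM in the Cd209a cells. In the Xcr1 or Clec9a cells it rested on 2 counts, 52.4 CPM (6.35 to 189), too few to place them. Irf4 had 4 counts, 58.6 CPM, in the Ccr7 cells and 8 counts, 15.1 CPM, in the Cd209a cells. These subsets were cut by marker UMIs and not by clustering. The 11 responder dendritic-like cells, with Irf8 at 1046 CPM and Irf5 at 368 CPM, were too few for levels by subset. Of their 91 Irf8 counts, 41 came from 1 cell, which had a Clec9a UMI. The 4 responder cells with a Cd209a or Mgl2 UMI held 2 of them.

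**Figure D4:**
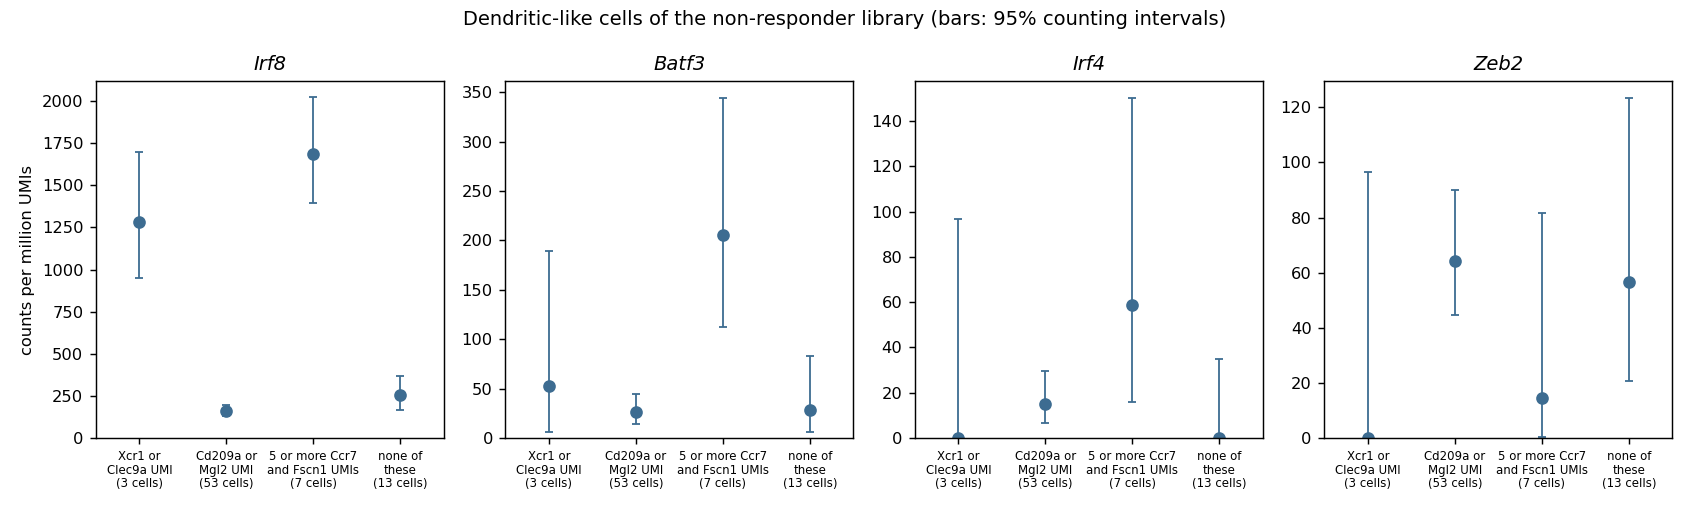
Levels of Irf8, Batf3, Irf4 and Zeb2 (y axis, CPM, from 0) in non-responder dendritic-like cells divided by marker UMIs (x axis, with the number of cells), with 95% counting intervals. Irf8 is at 1284 and 1686 CPM in the Xcr1 or Clec9a cells and the Ccr7 cells and at 161 CPM in the Cd209a or Mgl2 cells.

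Lymphoid cells gave a further comparison. Spi1, Cebpa and Cebpb had 0 counts in T and NK cell-like cells of each library. Irf8 was higher there than in macrophage-like cells, at 685 CPM in responder and 627 CPM in non-responder cells, 1.84-fold and 1.91-fold, a direction in which 27.0% and 19.1% of genes passed 1.5-fold, and almost all of it came from cluster 10, at 706 and 722 CPM. The regulatory T cell genes Ikzf2 and Ctla4 were among the leading genes of cluster 16, where Irf8 was at 106 CPM in non-responder cells. Irf5 was lower in T and NK cell-like than in macrophage-like cells, at 23.7 CPM in responder and 45.1 CPM in non-responder cells, where 35.9% and 36.2% of genes were lower by 1.5-fold or more.

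Relatives of the 9 factors are given next for the macrophage-like class, where 7.99% of all measured genes were higher and 12.9% lower by 1.5-fold or more, with a median log2 ratio of -0.14. Of 6 other measured interferon regulatory factors 1 was higher in the responder library, Irf1, an interferon-gamma-induced activator, at 170 CPM in responder and 54.5 CPM in non-responder cells (log2 ratio 1.64), with a list median of 0.26. Of 9 other BATF and AP-1 factors 2 were higher, Batf2 at 47.6 and 13.7 CPM and Fosl2 at 32.4 and 19.0 CPM. Of 11 other ETS and RUNX factors 1 was higher, Runx2 at 7.97 and 4.49 CPM. Of 4 other C/EBP factors 1 was higher, Cebpe at 2.51 and 1.11 CPM, and of 7 other MAF factors none was past 1.5-fold. Of 29 other factors of monocytes, macrophages and dendritic cells 8 were higher and 4 lower. The largest difference among them was that of Bhlhe41, a factor known from alveolar macrophages, at 3.13 CPM in responder and 36.3 CPM in non-responder cells. Next came Nfil3 at 16.1 and 4.89 CPM, Prdm1 at 9.93 and 3.29 CPM and Nr1h3, the oxysterol receptor LXR alpha, at 31.3 and 10.8 CPM.

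Genes known to depend on these factors are read against the same shares of 7.99% higher and 12.9% lower. Of 17 measured genes known to depend on PU.1, 1 was higher in the responder library, Csf3r, and 2 were lower, Csf1r, the receptor of the macrophage growth factor, at 410 CPM in responder and 648 CPM in non-responder cells, and Lyz2, lysozyme, at 7509 and 12956 CPM. Their median log2 ratio was 0.08, while that of Spi1 was 1.47. Of 8 genes known to depend on c-Maf, 4 were lower, among them Mrc1, the mannose receptor, with a log2 ratio of -2.16, and Folr2 at 10.4 and 66.5 CPM, a receptor of resident-type macrophages, and 1 was higher, Il10 at 8.11 and 1.47 CPM. Of 9 type 1 dendritic cell genes known to depend on IRF8 and BATF3, 5 were higher and none lower, with a median of 0.60. Xcr1 was among them, at 12.6 CPM in responder macrophage-like cells (531 counts) and 0.444 CPM in non-responder cells (10 counts), and Clec9a at 3.94 and 0.311 CPM. Within the responder library Xcr1 was at 24.1 CPM in cluster 1, 18.6 CPM in cluster 4 and 0.595 CPM in cluster 3. Its levels in the other clusters are not given here, and a link to Batf3 was not tested. Of 6 genes known to depend on IRF4, 3 were lower and 1 higher. Of 5 known to depend on IRF5, 3 were higher and 1 lower. Of 8 known to depend on C/EBP beta, 3 were higher, among them Nos2, inducible nitric oxide synthase, at 15.3 and 2.40 CPM. Another 3 were lower, among them S100a8 at 1.37 and 12.8 CPM and S100a9 at 0.024 and 9.47 CPM.

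Over 17 profiles of macrophage, monocyte-like and dendritic-like clusters by library, the genes whose levels ran most like Spi1 were Scarf1, Trappc6b and Rbfa, with Pearson r of 0.932, 0.931 and 0.926. Within libraries, r was 0.90, 0.89 and 0.94 over the 8 responder profiles and 0.16, 0.42 and 0.49 over the 9 non-responder profiles. Maf ran most like Rab31, Tmed2 and Sepp1, with r of 0.912, 0.908 and 0.905, and over the 9 non-responder profiles r was 0.94, 0.95 and 0.94. Irf5 ran most like Tap2 at r 0.888, Irf8 like Ccdc88b at 0.808, Zeb2 like Cstb at 0.850, Cebpa like Abtb1 at 0.831 and Batf3 like Tep1 at 0.857. Profiles of one library share its depth and preparation, and 7041 genes were searched, so these are descriptions of likeness. Irf4 and Cebpb, with 44 and 357 counts over the profiles, were too sparse for this measure.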

How the data were processed

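The 2 10x Genomics 3′ libraries were deposited as filtered matrices of whole-number UMI counts per gene and barcode. Per the submitters' processing notes, Cell Ranger 1.1.0 and mm10 (GRCm38) were used; whether strand was used is not stated. The 9 genes and all lists were chosen with earlier results of these data known. From the deposited counts, barcodes with at least 500 genes and at most 10% mitochondrial UMIs were kept, normalised, and clustered with scanpy 1.11.5 (2000 variable genes without the 86 factor genes, 30 components, Leiden resolution 1.0). A doublet caller marked 1 and 2 cells, so none was removed. Library totals were 45866561 (responder) and 32032569 (non-responder) UMIs. Counts were summed per class and library. Levels have exact Poisson and shares Clopper-Pearson 95% intervals, and ratios have conditional exact binomial ones. A gene was called at 1.5-fold with 50 counts in both groups together; no test was run. Named list genes are among the 4 largest of their list, except the Xcr1 cluster values, given for some clusters only. TMM used edgeR 4.0.16. Ratios were tested on simulated data.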

Additional observations from a re-analysis of the deposited data

Results flagged for a closer look

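Maf differed in direction between the monocyte-like cells of the libraries. Its log2 ratio of monocyte-like over macrophage-like level was 2.15 among responder cells and -0.44 among non-responder cells. Correspondingly, the responder over non-responder log2 ratio of Maf was -0.98 in macrophage-like cells and 1.61 in monocyte-like cells. Batf3 did likewise, with a monocyte-like over macrophage-like log2 ratio of 1.05 among responder and -0.67 among non-responder cells. These differences between groups were not tested, since each group is 1 library. The responder side rests on 48 cells, and its sign depended on the clustering, as given next.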

How the results depend on the processing

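No paired analysis was possible because each group has 1 library and no test was run. The count of factors higher in responder macrophage-like cells, 3, was 1 with equal weights of the shared clusters, in thinned cells and at a fold of 2. It was 2 with a pseudocount of 1 CPM, with cluster 5 counted in, without clusters 2, 3 and 6, and under each reclustering, where Cebpb fell short. It was also 2 for means over cells and without dividing clusters, where Batf3 did. The count lower, 1, was 0 with equal weights and at a fold of 2. Spi1 stayed past 1.5-fold and higher under all 14 alternatives, at log2 ratios of 1.40 to 1.63, and Maf under 13 of 14. In non-responder dendritic-like cells the count higher, 1, was 2 in thinned cells and with at least 1000 genes per cell and 0 at a fold of 2. The count lower, 3, fell at a fold of 2 and in thinned cells, where Cebpa was short, and was 1 at Leiden resolution 0.5. There the class grew to 205 cells, the Zeb2 log2 ratio became 0.16, that of Maf -1.18 and that of Batf3 0.065, short of 1.5-fold; that of Cebpa was 0.059 in thinned cells.

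The monocyte-like values were the least stable, and of these only Maf and Batf3 were retaken under other clusterings. In order of cluster 3 counted as monocyte-like, the factors among the variable genes, resolutions 0.5 and 2.0, libraries clustered apart, at least 1000 genes, and high doublet scores left out, the Maf log2 ratio of responder over non-responder was -0.63, -0.65, -0.52, -0.81, -1.05, -0.57 and -0.61. Monocyte-like over macrophage-like in the responder library, Maf was -0.25, -0.34, -0.71, -0.40, -0.72, -0.26 and -0.27, and Batf3 was -1.13, -1.21, -1.54, -1.30, -1.51, -1.03 and -1.22. With libraries clustered apart, Batf3 of responder over non-responder was -0.064. The monocyte-like alternatives, the count of cluster 5, cluster ranges without it and leaving out clusters 2, 3 and 6 were chosen after seeing the data.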
